A study of Mus musculus with 3 samples.

Results

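The autosomal insertions and deletions (indels) of a Y positive derivative of MB49 were compared with those of the parental MB49 line. MB49 cells come from a bladder carcinoma of the mouse, and derivatives with and without the Y chromosome were studied beside the line they came from. The labels give genotype parental, Y positive or Y NEGATIVE for 1 exome library each, and all 3 lines were grown in serum-supplemented DMEM with no other agent named. The labels do not say whether a derivative is 1 clone, how it was derived, or how many passages separate it from the parental cells. The groups followed the genotype label; the sample descriptions, MBN on Y positive and MBP on Y NEGATIVE, were not used. Should N mean negative and P positive, a reading the labels neither give nor deny, these names would be the reverse of the genotypes, and every value called Y positive here rests on the genotype label. Chromosome Y entries numbered 4 in the parental list, 9 in the Y positive list and 0 in the Y negative list.

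Members were indels of chromosomes 1 to 19, matched on chromosome, start, reference and alternative allele. They comprised 2700 sites that both lists hold with 1 alternative allele and 20 reads or more, 931 parental entries of that depth that the Y positive list does not hold, and 984 Y positive entries that the parental list does not hold. These 4615 members stood among 16429 autosomal indels of either list and 23347 distinct indels of all 3 libraries. Of 5084 indels listed in both, 2236 were below 20 reads in at least 1 library and 148 had more than 1 alternative allele. Each group was 1 library. No value below therefore has a replicate check, and each test compares the reads of 2 libraries and not the conditions. The 2 libraries were of like depth at the shared sites: the median was 50 reads in parental (quartiles 33 to 81) and 49 in Y positive (32 to 79), and the median log2 depth ratio was -0.03.

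An indel adds or removes bases relative to the reference genome. Runs of 1 base and repeats of a dinucleotide are the places where polymerases slip most, in cells and during amplification of a library, and mismatch repair corrects such slips in cells. In a diploid region a heterozygous indel is carried by about as many reads as the reference allele, while copy number changes and mixtures of cells, both common in tumour lines, move that share. Exome capture enriches coding exons, and reads at its edges reach into introns and untranslated regions. An indel whose length is not a multiple of the codon length shifts the reading frame.

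The sequences below are examples: the sites with the smallest p-values, the longest indel past the threshold, the longest of the large differences that did not pass, and coding or splice-site entries described later. The lower-case letter is the reference base before the indel, and the capitals are the inserted or deleted bases, on the strand of the reference as the deposited files give them. The first 3 passed the adjusted test of read share between the libraries, the next differed by a large share without passing the adjusted test, and the rest were listed in 1 library of the pair.
16:29261083 deletion: gA
17:25464086 deletion: cGG
11:3057826 deletion: aGGAGCCC
8:63014738 deletion: tTGTCAACCCTTGAGTTC
16:32753437 insertion, parental list: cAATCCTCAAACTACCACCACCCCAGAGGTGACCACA
1:74440447 deletion, parental list: gACGAGACCCTGGTGC
1:173286748 deletion, parental list: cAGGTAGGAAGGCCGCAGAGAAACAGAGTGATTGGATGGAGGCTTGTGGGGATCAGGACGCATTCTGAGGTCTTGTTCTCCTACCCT
10:59757856 insertion, parental list: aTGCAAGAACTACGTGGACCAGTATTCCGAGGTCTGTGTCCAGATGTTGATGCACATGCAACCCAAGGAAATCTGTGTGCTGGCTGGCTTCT
16:48449407 deletion, Y positive list: cGATTACAG
19:21672824 insertion, Y positive list: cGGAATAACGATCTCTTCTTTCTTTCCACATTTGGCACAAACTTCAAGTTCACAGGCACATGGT

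The shared sites held nearly the same genotypes in both lines. A shared site needs the same indel in both lists with 1 alternative allele. So the genotypes could differ only as heterozygous against homozygous, and indels missing from a list are outside this count. The deposited genotype was heterozygous in both at 1671 sites and homozygous for the indel in both at 940, which is 2611 of 2700 or 96.7% (exact binomial 95% interval 96.0 to 97.3). At 741 of the 940 sites neither library held a reference read. The other 89 sites differed in genotype, 54 of them heterozygous in parental and homozygous in Y positive and 35 the other way. Their shifts were mostly small. The median alternative allele fraction, the reads with the indel over all reads, went from 0.836 to 0.955 at the 54 sites and from 0.951 to 0.86 at the 35. Of the 89, 4 passed the adjusted test of reads described next, and 27 passed the same test without adjustment. Among all 2700 shared sites these counts were 23 (0.852%) and 165 (6.11%). Sites of differing genotype thus passed more often than shared sites as a whole, though most of the 89 did not pass.

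Across all 2700 sites the allele fraction in Y positive minus that in parental had a median of 0, with quartiles of -0.0319 and 0.0359. The fraction was higher in Y positive at 1001 sites, lower at 936 and equal at 763. The size of the difference had a median of 0.0339 and a 95th percentile of 0.207. Differences of at least 0.1 were seen at 552 sites (20.4%), of at least 0.2 at 156 (5.78%) and of at least 0.3 at 40 (1.48%). The spread shrank with depth: among sites heterozygous in both, the median size fell from 0.0855 where the shallower library had 20 to 29 reads to 0.029 where it had 200 or more.

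**Figure D1:**
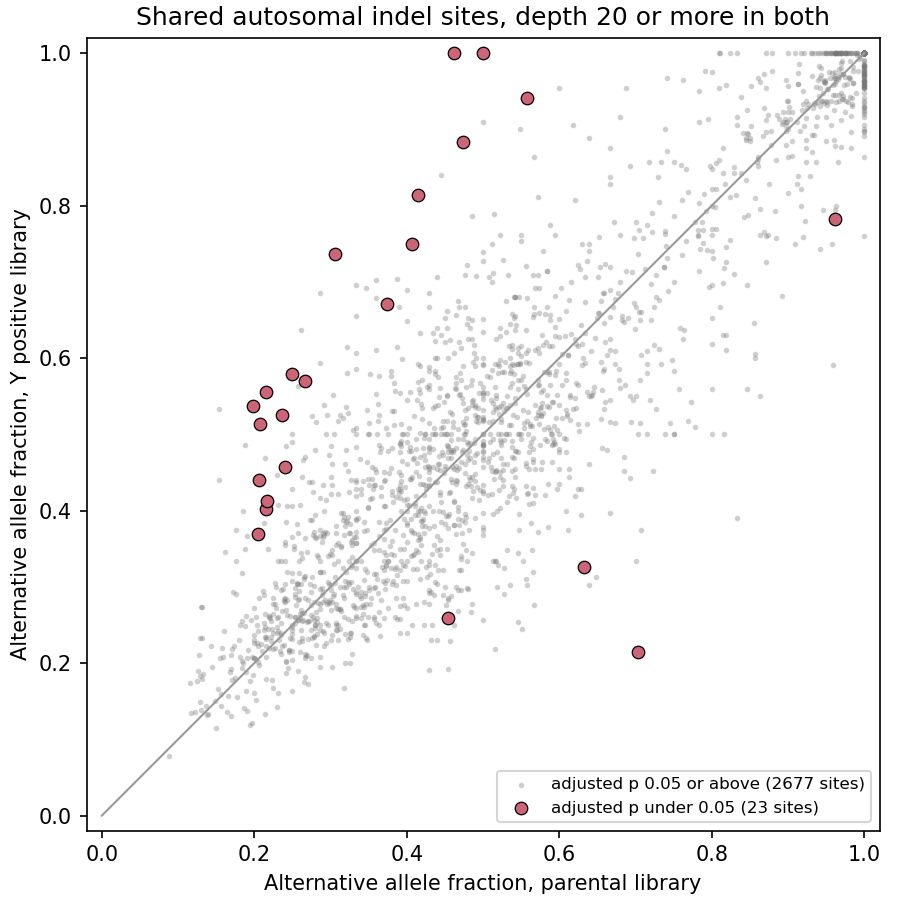
Each point is 1 of the 2700 shared sites, with the alternative allele fraction in parental on the x axis and in Y positive on the y axis; the line marks equal fractions. Most points lie along the line, and of the 23 large points, which passed the adjusted test, 19 lie above it and 4 below.

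The reads with and without the indel were set against each other per site. Each read was counted as separate, although reads carried no molecular identifiers, so the p-values cover counting error of reads only. The two-sided Fisher exact test, with Benjamini-Hochberg adjustment over the 2745 sites of all chromosomes, passed an adjusted p of 0.05 at 23 autosomal sites. They are 0.852% of 2700; over all chromosomes tested the share was 0.874%. The fraction was higher in Y positive at 19 of them and lower at 4, where the shares over all chromosomes were 0.729% and 0.146%. At an unadjusted p of 0.05 the autosomal counts were 110 higher and 55 lower, 6.11% of sites in all, against 6.23% over all chromosomes (4.12% higher and 2.11% lower). So among the sites past either threshold more were higher in Y positive, while over all sites the 2 directions were nearly equal in number. The 23 sites lay on 14 chromosomes, 21 were deletions and 2 insertions, and 19 were heterozygous in both libraries. By the authors' annotation 11 were intronic, 6 intergenic, 5 in introns of non-coding RNAs and 1 in a 3′ untranslated region, and none was coding.

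**Figure D2:**
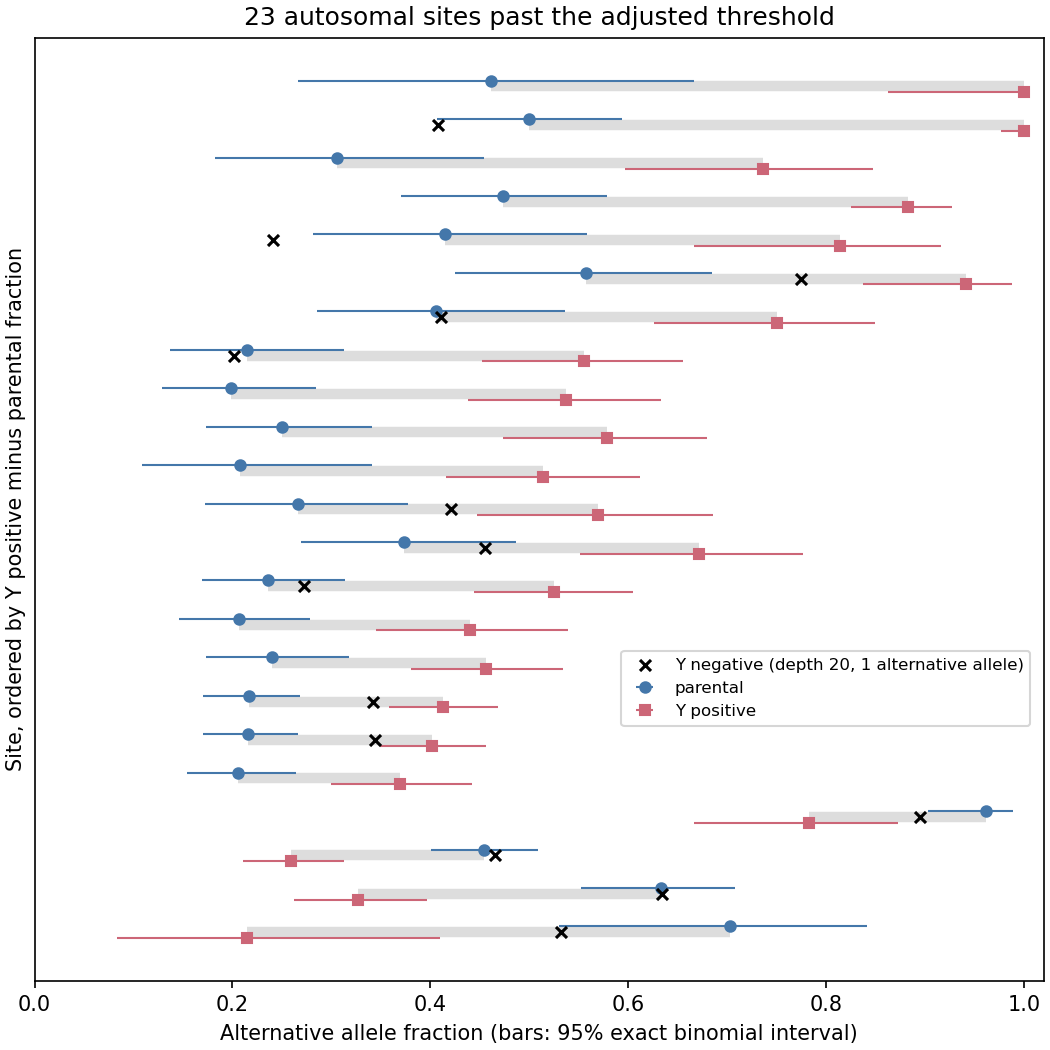
The 23 sites past the adjusted threshold, ordered by difference, with the allele fraction on the x axis in parental (circles) and Y positive (squares), each with its exact binomial 95% interval, and in Y negative (crosses) at the 14 sites where that library had 1 alternative allele and 20 reads. The grey bar spans parental to Y positive. At 10 of the 14 sites the cross lies nearer parental, and all sites were chosen because parental and Y positive differed.

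At 3 of the 23 sites the genotype went from heterozygous to homozygous, so that the reference allele was at or near 0 reads in Y positive. The deletion of 1 A at 16:29261083, in an intron of ENSMUST00000075806, was on 59 of 118 reads in parental, 160 of 160 in Y positive and 73 of 179 in Y negative. Y positive had 0 reference reads in 160, and the exact binomial 95% interval of its fraction began at 0.977. The difference was 0.5 (95% interval 0.408 to 0.589, Fisher exact test, adjusted p = 4.48e-24). At 17:28297644, in an intron of the non-coding ENSMUST00000137147, a deletion of 1 C was on 12 of 26 reads in parental, 25 of 25 in Y positive and 4 of 11 in Y negative. Here too Y positive had 0 reference reads, and at 25 reads the exact binomial 95% interval of its fraction began at 0.863. The difference was 0.538 (0.311 to 0.712, Fisher exact test, adjusted p = 0.00231). The deletion of 1 G at 13:67923991, in an intron of the non-coding ENSMUST00000168671, was on 34 of 61 reads in parental, 48 of 51 in Y positive and 31 of 40 in Y negative, at an adjusted p of 7.53e-04 (Fisher exact test). Here Y negative, at 0.775, lay between parental at 0.557 and Y positive at 0.941.

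The deletion of 2 G at 17:25464086, between genes, was on 45 of 95 reads in parental and 151 of 171 in Y positive, a difference of 0.409 (0.295 to 0.515; Fisher exact test, adjusted p = 1.39e-09). The Y negative list gave 2 alternative alleles at this place, the same deletion on 55 of 138 reads and a deletion of 1 G on 52. Y positive thus stood above both other libraries for the longer deletion. It was 1 of 33 shared indels made of 2 or more G or C.

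Most of the other sites with more deletion reads in Y positive had few in parental. At 10:102857605, in an intron of ENSMUST00000074204, a deletion of 1 T was on 22 of 111 parental and 58 of 108 Y positive reads (adjusted p = 8.57e-05 by the Fisher exact test). At 3:98384074, between genes, a deletion of 1 G was on 34 of 144 and 83 of 158 reads, and on 34 of 125 in Y negative, at an adjusted p of 1.02e-04 (Fisher exact test). At 1:183682765, in a non-coding intron, a deletion of 1 T was on 20 of 93 and 55 of 99 reads, and on 22 of 109 in Y negative, at an adjusted p of 4.64e-04 (Fisher exact test). At the last pair of sites Y negative resembled parental, with fractions of 0.272 against 0.236 and 0.202 against 0.215. The first was not listed in Y negative.

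Among intronic sites a deletion of 1 T at 3:45187974 was on 28 of 112 and 55 of 95 reads, and the one at 5:31609323, intronic, on 15 of 49 and 39 of 53. At 8:41984710, intronic, a deletion of 1 A was on 22 of 53 and 35 of 43 reads, and on 14 of 58 in Y negative. In the 3′ untranslated region of ENSMUST00000098496, at 3:154428932, a deletion of 1 G was on 26 of 64 and 48 of 64 reads, and on 23 of 56 in Y negative. Their fractions rose by 0.329, 0.43, 0.399 and 0.344, and adjusted p-values of the Fisher exact test were 5.29e-04, 0.00462, 0.0124 and 0.0213. The remaining single-base deletions that were higher in Y positive were at 6:122411078 (35 of 146 against 79 of 173 reads), 5:76036909 (32 of 155 against 48 of 109) and 15:101646448 (31 of 83 against 49 of 73). The last 3 were at 9:109419100 (21 of 79 against 41 of 72), 19:53892376 (46 of 224 against 69 of 187) and 6:69726055 (11 of 53 against 55 of 107). The adjusted p-values of these 6 ran from 0.0116 to 0.035 (Fisher exact test).

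On chromosome 19 an insertion and a deletion 3 bases apart moved together. At that distance they can share reads and are not separate observations, though the counts of sites in this text hold each of them. The insertion of CA at 19:9681627 was on 63 of 291 reads in parental, 134 of 325 in Y positive and 135 of 395 in Y negative. The deletion of TG at 19:9681630 was on 64 of 297, 135 of 336 and 140 of 407. Y negative lay between the other libraries for both, at 0.342 and 0.344. Adjusted p-values were 8.57e-05 and 1.74e-04 by the Fisher exact test. Close by, the Y positive list also held insertions that the parental list did not. They were of 35 bases at 19:9681561 (44 of 163 reads), 19 at 19:9681556 (18 of 129) and 12 at 19:9681548 (8 of 107). Y negative listed the first pair of these insertions.

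At 4 sites fewer reads carried the indel in Y positive. At 7:7230947, between genes, a deletion of 1 G was on 100 of 158 reads in parental, 65 of 199 in Y positive and 90 of 142 in Y negative. Parental and Y negative were alike there, at 0.633 and 0.634, and Y positive was at 0.327 (Fisher exact test, adjusted p = 7.80e-06). The insertion of 1 T at 5:151128687, in an intron of ENSMUST00000045502, was on 155 of 341, 77 of 297 and 148 of 318 reads in that order, at an adjusted p of 1.02e-04 (Fisher exact test). The same order held, with 0.455 in parental, 0.465 in Y negative and 0.259 in Y positive. At 5:76670828, intronic, a deletion of 1 A was on 26 of 37, 6 of 28 and 25 of 47 reads, and Y negative lay between (adjusted p = 0.0213, Fisher exact test).

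The fourth, the deletion of GGAGCCC at 11:3057826 in a non-coding intron, was on 99 of 103 reads in parental, 54 of 69 in Y positive and 94 of 105 in Y negative. It went from homozygous to heterozygous and was the longest indel past the threshold, at an adjusted p of 0.0408 (Fisher exact test). In the Fisher exact test the call was lost at a minimum depth of 10 reads (adjusted p = 0.0534) and without single-base A or T indels (adjusted p = 0.0569). A deletion of 8 bases at 11:3057834 moved with it, on 100 of 104 parental and 54 of 68 Y positive reads, at an adjusted p of 0.0694 (Fisher exact test).

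The 23 sites were largely changes of 1 base. Classes here and below follow the inserted or deleted bases alone, and whether the bases around them form a run or repeat was not checked. A dinucleotide unit is 2 different bases, once or repeated. Single-base A or T indels gave 14 of 1291 (1.08%), single-base G or C indels 5 of 437 (1.14%), dinucleotide units 2 of 367 (0.545%), runs of 2 or more G or C 1 of 33, runs of 2 or more A or T 0 of 127, and other sequence 1 of 445 (0.225%). These classes differ in how often both copies carried the indel: other sequence was homozygous in parental at 66.5% of sites and single-base A or T at 24.0%. Depth also moved with the count, since the share past an unadjusted p of 0.05 was 4.79% at 20 to 29 reads and 11.1% at 200 or more. The smallest depth behind a site past the adjusted threshold was 25 reads and the smallest difference 0.164. Mapping quality was 60, the highest in these files, in both libraries at 16 of the 23 sites and at 79.0% of all shared sites. The log2 depth ratio of Y positive to parental at the 23 had a median of -0.04 and ran from -0.57 to 1.01. The part of depth and mapping quality in these differences was not tested.

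The Y negative library, which the members' rule did not use, listed 16 of the 23 sites (69.6%, 47.1 to 86.8) against 1396 of the 1671 sites heterozygous in both (83.5%, 81.7 to 85.3) and 930 of the 940 homozygous ones (98.9%). At the 7 sites it did not list, it held no entry within 10 bases either. Of the 14 with 1 alternative allele at 20 reads or more, its fraction was nearer parental at 10 and nearer Y positive at 4, and lay between them at 9. The 4 include both neighbours on chromosome 19 that can share reads. All 14 were chosen because parental and Y positive differed, so a library can fall between them by that choice. No such count was made over all shared sites. These 3 libraries share the parental line as a source, and the counts describe single libraries.

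The 5 largest differences that did not pass were at low depth. At 17:88048855 a deletion of 1 A was on 20 of 24 parental and 16 of 41 Y positive reads (adjusted p = 0.0694), and the insertion of 1 T at 14:64483257 on 8 of 28 and 24 of 35 (adjusted p = 0.198), both by the Fisher exact test. At 4:126203511 a deletion of 1 A was on 10 of 20 and 20 of 22 reads, and that of 1 G at 14:15769990 on 12 of 27 and 21 of 25. The deletion of 17 bases at 8:63014738, printed above, was on 4 of 26 and 16 of 30 reads, with a difference of 0.379 (0.13 to 0.568; Fisher exact test, adjusted p = 0.281). It was not listed in Y negative, and it was the only 1 of these 5 outside single-base indels. All 5 had a library with under 30 reads.

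Median shifts in fraction per chromosome were small among sites heterozygous in both. Sites that changed genotype or left a list are not in these medians, which therefore cannot show a change of that kind. The sites of differing genotype numbered most on chromosome 11, at 15 of 243. The median log2 depth ratio of Y positive to parental ran from -0.16 on chromosome 17 to 0.11 on chromosome 16. Over sites heterozygous in both, the median difference per chromosome ran from -0.0229 (chromosome 18, 34 sites) to 0.0234 (chromosome 14, 54 sites). The share of sites homozygous in parental differed far more between chromosomes, from 6.17% of 81 on chromosome 19 to 66.4% of 107 on chromosome 18 and 66.3% of 264 on chromosome 3, and the counts in Y positive were close (5, 68 and 179 against 5, 71 and 175). Of 145 windows of 10 Mb with at least 5 heterozygous sites, 3 had a median difference over 0.1 in size and 0 over 0.2. The largest was 0.144, over 5 sites of chromosome 3 between 110000001 and 120000000, with 4 higher and 1 lower.

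Shared coding indels gave no difference that passed. There were 131, of which 73 were frameshift deletions, 27 frameshift insertions, 18 in-frame deletions and 11 in-frame insertions, with 1 stop gain and 1 of unknown effect. In Fisher exact tests 0 of 131 passed the adjusted threshold, the smallest adjusted p being 0.261, and 9 (6.87%) passed unadjusted, near the 6.23% of all sites. By genotype 83 were heterozygous and 46 homozygous in both. The 2 that differed were both heterozygous in parental and homozygous in Y positive. A deletion of TT in exon 2 of ENSMUST00000052245 (1:163081099) was on 47 of 58 reads in parental, 32 of 32 in Y positive and 30 of 30 in Y negative. A deletion of 1 G in exon 5 of ENSMUST00000080795 (8:12429968) was on 20 of 24, 30 of 30 and 30 of 31. In both, parental kept reference reads that the derived libraries nearly or wholly lacked, and neither passed (adjusted p = 0.335 and 0.666, Fisher exact test).

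The 3 other coding sites with the largest differences were heterozygous in both. In exon 6 of ENSMUST00000006761 (4:13787075) a deletion of 1 A had the largest, 0.199, with 34 of 67 reads in parental, 65 of 92 in Y positive and 41 of 72 in Y negative. An in-frame deletion of TGC in exon 1 of ENSMUST00000029275 (3:37024689) was on 13 of 74 and 20 of 60 reads and was not listed in Y negative. An insertion of TC in exon 1 of ENSMUST00000073543 (11:50862216) was on 39 of 227, 54 of 184 and 50 of 250. All 3 were higher in Y positive, with adjusted p-values of 0.476, 0.744 and 0.261 (Fisher exact test).

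About the same share of each list had no counterpart in the other. Of 4009 parental entries at 20 reads or more, 931 were not in the Y positive list, 23.2% (21.9 to 24.6). Of 4065 Y positive entries, 984 were not in the parental list, 24.2% (22.9 to 25.6). A list holds what the authors' caller reported, so an entry's absence is not a measured reference genotype. The intervals are exact binomial and cover counting error only, since reads carried no molecular identifiers and nearby indels share reads.

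Heterozygous entries made up most of the unmatched ones. Among heterozygous entries 30.3% of parental and 31.3% of Y positive had no counterpart, against 2.74% and 2.08% of homozygous ones and 38.7% and 44.8% of entries with 2 alternative alleles. Their reads were few: heterozygous entries listed in both had a median fraction of 0.455 in parental and 0.463 in Y positive, and those listed in 1 had 0.297 and 0.319. Deletions were 85.0% and 85.3% of the unmatched entries and 72.4% and 72.8% of the matched ones. Mapping quality was 60 for 83.7% and 84.5% of the unmatched and 81.5% and 81.4% of the matched.

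**Figure D3:**
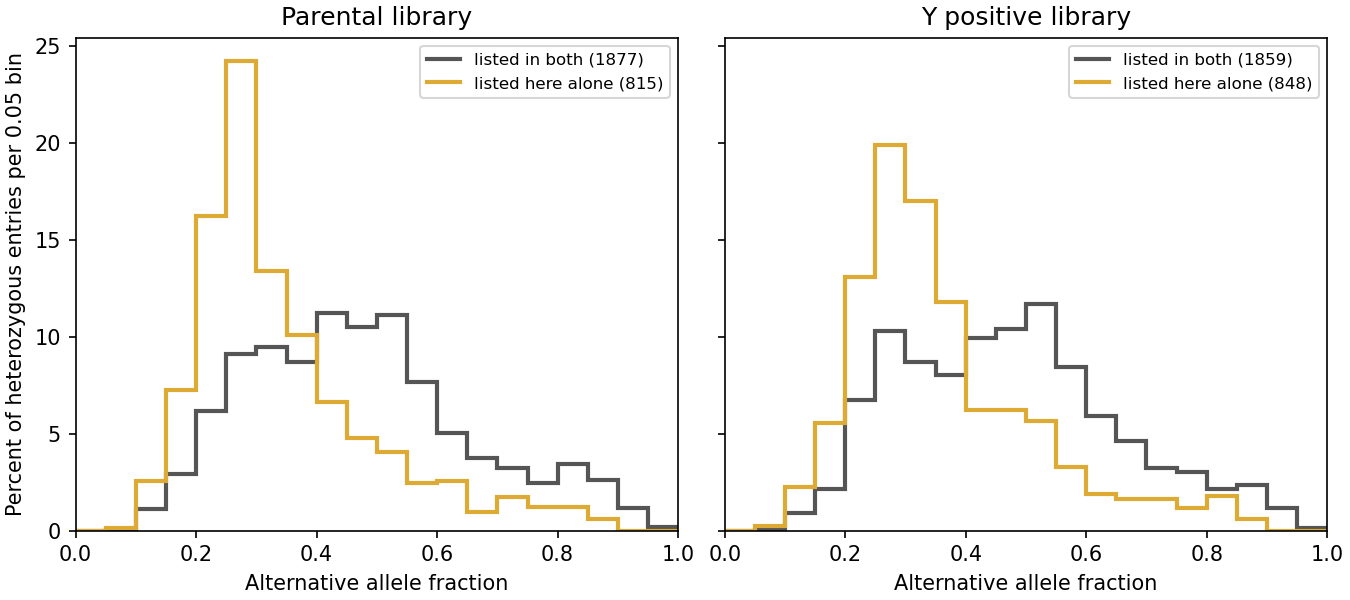
Alternative allele fraction (x axis) of heterozygous entries at 20 reads or more, as a percentage per bin of 0.05 (y axis), for entries listed in both libraries and in that library alone. In both panels the entries listed alone peak at lower fractions, with medians of 0.297 in parental and 0.319 in Y positive against 0.455 and 0.463.

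Dinucleotide units were unmatched most often, at 35.8% of 660 parental and 38.5% of 685 Y positive entries. Runs of 2 or more A or T were at 28.2% and 26.4%, runs of 2 or more G or C at 19.2% of 78 and 28.2% of 85, single-base A or T indels at 24.5% and 25.6%, and single-base G or C indels at 15.5% and 15.7%. Other sequence was lowest, at 10.4% of 546 and 8.03% of 523. Among heterozygous entries alone the shares were 42.2% and 44.4% for dinucleotide units, 39.7% and 38.1% for A or T runs and 28.5% and 29.8% for single-base A or T. The other 3 classes were lower and closer together: G or C runs at 19.2% and 26.1%, single-base G or C at 22.3% in both lists, and other sequence at 22.4% and 18.7%, so that other sequence was lowest in Y positive only. With depth the share fell from 28.1% and 31.4% at 20 to 29 reads to 4.7% of 149 and 11.2% of 143 at 200 or more. Around the threshold it was 38.8% and 37.3% at 15 to 19 reads, and 29.6% and 33.1% at 20 to 24.

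**Figure D4:**
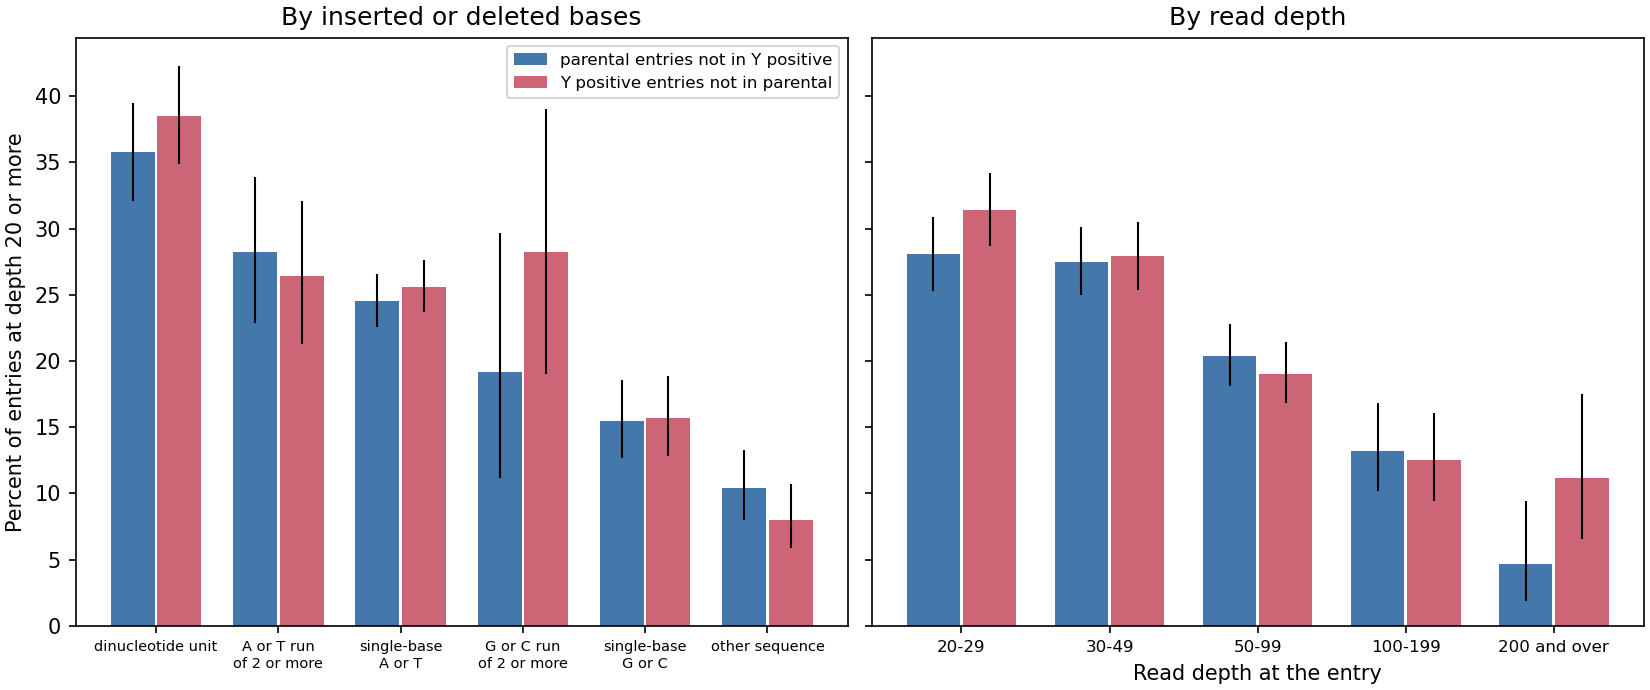
Percentage of entries at 20 reads or more that the other list does not hold, by the inserted or deleted bases (left) and by read depth (right), for parental and Y positive entries; lines are exact binomial 95% intervals. Dinucleotide units reach 35.8% and 38.5%, other sequence 10.4% and 8.03%, and the share falls with depth to 4.7% and 11.2%.

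Some unmatched entries were the same allele written from another start. When the position, reference and alternative bases of the variant record were compared after trimming shared last bases, 52 of the 931 parental entries (5.59%) and 56 of the 984 Y positive entries (5.69%) had a counterpart 1 to 3 bases away. In all 52 and all 56 the entry or its counterpart belonged to a record with 2 alternative alleles; in 25 and 33 of them it was the entry itself. This left 879 parental (21.9%, 20.7 to 23.2) and 928 Y positive entries (22.8%, 21.5 to 24.2) in 1 list. Another 131 and 153 had a different allele of the other list within 10 bases, and 748 and 775 had nothing there. Of the last, Y negative listed 263 (35.2%, 31.7 to 38.7) and 263 (33.9%, 30.6 to 37.4).

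The place with the most such reads shows the pattern. At 17:57908920, upstream of ENSMUST00000076038, Y positive had a homozygous deletion of 1 A on 164 of 170 reads. Parental had that deletion on 108 of 145 reads beside a deletion of 2 A on 32, and Y negative had them on 107 and 30 of 147. The shorter deletion was thus in all 3 libraries, and the longer was listed in parental and Y negative and not in Y positive. The same held at 6:69010077, intronic: Y positive had a deletion of 1 A on 104 of 124 reads, parental on 67 of 115 beside a deletion of 2 A on 31, and Y negative on 83 of 153 beside 41. At 13:100997498, intronic, the deletion of 1 A was on 95 of 115 Y positive and 35 of 121 parental reads, and parental had a deletion of 3 A on 63 more; Y negative listed neither.

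Homozygous entries in 1 list were few, and were singled out after their values were seen. Parental had 30, of which 14 were the same allele from another start, 3 had another allele within 10 bases and 13 had nothing there. Y positive had 23, with 12, 4 and 7. The parental 13 held 3 clusters of insertions that neither derived library listed. At 5:130300579 and 5:130300581, in an intron of ENSMUST00000031402, insertions of 1 and 106 bases were on 104 of 104 and 103 of 103 reads, and the nearest Y positive entry was 3848 bases away.

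The second cluster was at 19:37646142, 19:37646151, 19:37646164 and 19:37646166, intronic, with insertions of 1, 14, 2 and 22 bases on 72 of 73, 62 of 63, 36 of 36 and 35 of 35 reads. The last, upstream of ENSMUST00000098432, was at 8:109452365, 8:109452369 and 8:109452371, with insertions of 6, 4 and 51 bases on 29 of 29, 26 of 26 and 20 of 20. Indels of a cluster are close enough to share reads and are not separate observations, though the counts of homozygous entries hold each of them. Read-level data were not used here. A shared insertion of 1 T at 8:109451593, 772 bases before the cluster, was on 32 of 34 reads in parental, 29 of 39 in Y positive and 31 of 37 in Y negative. The depth of the derived libraries at the cluster itself is not in the lists and was not measured.

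Coding entries in 1 list were 16 of 150 in parental (10.7%, 6.22 to 16.7) and 24 of 159 in Y positive (15.1%, 9.92 to 21.6), below the 23.2% and 24.2% of all entries. The intervals of the 2 lists overlap. Y negative listed 4 of the parental 16 and 12 of the Y positive 24. None of the 40 had the same allele from another start. The counts are of list entries, and some of the Y positive 24 are neighbours with like reads. They include 5:31503045 and 5:31503046 (6 of 26 each), and 9:58993871 and 9:58993873 (56 of 384 and 56 of 385). Others are 9:103257520 and 9:103257522 (30 of 236 and 30 of 237). Such neighbours can share reads and are not separate observations. By the annotation in the lists, frameshifts were 8 of the 16 and 20 of the 24, and 73 deletions and 27 insertions of the 131 shared. The parental 8 include the deletion of 117 bases at 1:74440474, whose length is a multiple of the codon length.

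Of the parental 16, 4 had a fraction of at least 0.25. The in-frame insertion of 36 bases in exon 2 of ENSMUST00000096106 (16:32753437) was on 41 of 59 reads, though deposited as homozygous, and on 29 of 47 in Y negative. The transcript also held a deletion of 173 bases at 16:32754080, listed in all 3, on 97 of 156 reads in parental, 148 of 277 in Y positive and 145 of 285 in Y negative. The in-frame deletion of 15 bases in exon 3 of ENSMUST00000027367 (1:74440447) was on 27 of 101 parental and 24 of 94 Y negative reads. It ends at 74440461, close to the parental deletion of 117 bases at 1:74440474 in the same exon, described below. These neighbours can share reads and are not separate observations, though the count of 16 holds each of them. A deletion of 1 A in exon 14 of ENSMUST00000115356 (6:23360016) was on 8 of 21 parental reads. The insertion of 91 bases in exon 6 of ENSMUST00000004316 (10:59757856) was on 105 of 343 parental reads. The last pair was in the parental list alone, the first pair in parental and Y negative.

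Long coding deletions in parental alone were at lower fractions. In ENSMUST00000027367, 117 bases were deleted at 1:74440474 on 44 of 200 reads, and in ENSMUST00000006579, 86 bases at 1:173286748 on 41 of 366. Both deleted stretches begin with AGGT, and moving the window by 2 bases puts GT first and AG last, the letters at the ends of most introns. Whether the flanking bases allow that move was not tested, and the letters were looked at after these entries were seen. With a move of up to 5 bases this was found in 4 of the 11 parental deletions of 50 bases or more, both unmatched ones among them, and in 2 of the 8 Y positive ones, all of which were shared. A shared one, 89 bases at 10:59762806, lies in ENSMUST00000004316, the transcript of the insertion of 91 bases, on 98 of 330 parental and 85 of 278 Y positive reads.

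Of the Y positive 24, 11 had a fraction of at least 0.25, and 10 of these were frameshifts. The most reads were on the insertion of 1 C in exon 4 of ENSMUST00000047864 (10:80641512), with 110 of 197 in Y positive and 64 of 146 in Y negative, at a mapping quality of 48.4. The deletion of 1 G in exon 1 of ENSMUST00000045713 (11:6505641) was on 18 of 23 and 28 of 34 reads in the same libraries. Also in both derived lists and not in parental were the insertion of 1 T at 1:90152741 (64 of 202 and 67 of 252) and the deletion of AC at 3:107734402 (10 of 22 and 12 of 24). Deletions at 12:3236684 (6 of 20 and 7 of 25) and 10:127098411 (6 of 23 and 6 of 16) were of low depth. The deletion of TTT at 3:78696073 (21 of 55 and 26 of 65) was 1 of 2 alternative alleles, with a parental entry 1 base away.

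The other 4 of the 11 were frameshift deletions of 1 A that neither parental nor Y negative listed. The one in exon 1 of ENSMUST00000060440 (7:111338113) was on 88 of 219 reads, a fraction of 0.402 (0.336 to 0.47). Those at 11:85635526 (25 of 54) and 17:18211152 (22 of 59) had a mapping quality of 60, and that at 7:9869725 (19 of 49) one of 37.9. The longest coding entry in the Y positive list alone, the in-frame insertion of 63 bases in exon 4 of ENSMUST00000038830 (19:21672824), was on 24 of 115 reads. It was below the fraction of 0.25 that named the 11.

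Annotated splice-site entries, singled out after their values were seen, were 4 of 12 in parental (33.3%, 9.92 to 65.1) and 3 of 12 in Y positive (25%, 5.49 to 57.2) that the other list did not hold, where the shares of all entries were 23.2% and 24.2%. The Y positive ones were at fractions near those of heterozygous sites: the deletion of 1 T at 4:94516613 on 70 of 125 reads, that of AG at 10:57872799 on 31 of 65, and that of 8 bases, GATTACAG, at 16:48449407 on 78 of 167. None was listed in Y negative, and mapping quality was 60 at each. The parental ones were lower, on 8 of 34 (2:10636967), 19 of 58 (2:176859065), 6 of 22 (4:42970000) and 16 of 52 reads (9:35364488), and Y negative listed the first pair.

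The remaining entries with most reads were noncoding. In parental these included a deletion of 9 bases at 5:14978610, intronic, on 157 of 1384 reads at a mapping quality of 38.6. In Y positive a deletion of 1 G at 15:84886030, intronic, was on 98 of 218 reads, a fraction of 0.45 (0.382 to 0.518) at a mapping quality of 60. Neither was in Y negative. The longest sequences in 1 list were intronic insertions that Y negative did not list. In parental, 122 bases at 16:57391789 were on 19 of 32 reads, and Y positive had an insertion of 87 bases at that start on 10 of 10. In Y positive, 69 bases at 15:90796215 were on 24 of 60 reads.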

How the data were processed

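Genomic DNA of 3 MB49 lines was exome captured and sequenced in read pairs, per the labels' protocols. BWA, Picard, mm9 and mm10 are named in the submitters' processing notes; the caller is not given in the sources used here. The deposited coordinates reach past the last gene ends of the mm10 table (197068017 against 195291439 on chromosome 1), so they are not mm10, and mm9 is the other build named. The authors' counts are whole reads per allele and depth, and the deposited quality values are a score. The deposited files give Ensembl transcripts without symbols, and 0 of 11908 matched the names table, so the lists of genes drawn up were not applied. The deposited fraction column, the allele dosage (0.5 or 1), was not used: allele fractions were computed from the authors' read counts, where alternative and reference reads summed to the depth in all entries.

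Fisher exact tests used scipy 1.17.1 (checked on simulated data), Clopper-Pearson 95% intervals for shares and Newcombe intervals for differences. The 2 lists compared had 11438 and 10075 autosomal entries. Named were all sites past the threshold, the 5 largest differences below it, coding entries in 1 list with a fraction of at least 0.25, coding sites with the 5 largest differences or another genotype, the 5 entries per list with most reads and the longest sequences. Members and lists were chosen with earlier results of these data known. Alternatives varied depth, sequence class, neighbours, matching, test and quality.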

Additional observations from a re-analysis of the deposited data

How the results depend on the processing

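The number of sites past the adjusted threshold was between 20 and 28 under 8 alternatives against 23, and 8 (7 higher, 1 lower in Y positive) when single-base A or T indels, 14 of the 23, were left out. Over the named sites, 184 site and setting pairs were run: 182 kept the side of the threshold and 2 lost it, both losses being 11:3057826. Every setting used the same reads per site, so the direction could not change and was not checked by these settings. The setting with alternative reads over the deposited depth repeated the main one, since reads summed to the depth in all entries. The median difference was 0 except over sites heterozygous in at least 1 library, where it was 0.00352. With a minimum depth of 10, 30 and 50 reads the Y positive entries not in parental were 29.1%, 21.5% and 16.8%, the parental entries not in Y positive 28.2%, 21.5% and 17.3%, and sites of equal genotype 95.3%, 97.8% and 98.2%. Leaving out entries with a neighbour within 10 bases gave 21.6% and 21.1% unmatched, and taking any entry within 10 bases as a match 19.1% and 18.7%. Leaving out entries below the median quality of their own library gave 17.4% and 20.4%. That median was 143 in Y positive and 100.73 in parental, leaving 3464 and 3745 entries, so the last 2 shares stand at unlike cuts. Matching on the left-aligned allele, chosen after seeing the data, gave 22.8% and 21.9%. No paired analysis was possible because each group held 1 library.

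The smallest difference past the threshold was 0.164, sites that vanish from a list were not tested, and substitutions were not analysed here.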
